A study of Homo sapiens with 60 samples.

Results

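Cimicifugae Rhizoma at the medium dose was set against vehicle in SW1783 cells, an established human astrocytoma line. The libraries were chosen by their labels and by no measured value. They are 3 libraries of cells kept for 24 h with the water extract at 100 µg/mL and 3 libraries of cells kept for 24 h with vehicle, 6 of the 60 libraries of the series. Cimicifugae Rhizoma is the dried rhizome of Cimicifuga plants and is used in East Asian herbal medicine. Vehicle cells received 0.1% DMSO per their labels, the series' design text gives 2%, and no DMSO value is given for the extract. The extract's low dose (20 µg/mL) and high dose (500 µg/mL) and the medium dose (100 µg/mL) of Citri Unshius Pericarpium, a dried mandarin peel, had 3 libraries each and served to place the medium dose. All of these libraries carry the same batch and sequencing-run labels, but the vehicle's sample codes begin with B1 and those of the extracts with 5. The meaning of the codes was not given in the sources used here. In any comparison with vehicle the extract, DMSO and the code set therefore cannot be told apart, whereas the doses of both extracts share a code set. The labels do not say that replicates were separate cultures, so the p-values cover only scatter among libraries, and that scatter may be technical. For edgeR's test it was estimated from the 57 libraries of 19 groups fitted together.

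Gene expression was measured as estimated read counts per gene, with 22.81 to 26.82 M (mega) counts per medium-dose library and 19.51 to 23.03 M per vehicle library. Levels are given in CPM, counts scaled to a common library size. Of 9 astrocyte markers, 6 were under 0.5 CPM in all 6 libraries, among them the filament protein GFAP (0 to 3 counts at the medium dose and 1 to 6 in vehicle) and the water channel AQP4 (0 counts in all). The gap junction gene GJA1 (means of 244 CPM at the medium dose and 241 CPM in vehicle), SOX9 (71.1 CPM at the medium dose and 70.5 CPM in vehicle) and the glutamate transporter SLC1A3 (33.8 CPM at the medium dose and 33.9 CPM in vehicle) were present. Few of the astrocyte markers were thus found, and the name astrocytoma is that of the line. The 9 mesenchymal markers summed to 15049 to 15409 CPM at the medium dose and 15767 to 16099 CPM in vehicle. The 9 neuron markers summed to 182 to 184 CPM at the medium dose and 186 to 195 CPM in vehicle, with 4 of them under 0.5 CPM in all 6 libraries. The 7 endothelial markers summed to 37.0 to 39.7 CPM at the medium dose and 42.4 to 43.7 CPM in vehicle, with CDH5, VWF and CLDN5 under 0.5 CPM, and the 7 oligodendrocyte markers to 7.42 to 7.62 CPM at the medium dose and 6.82 to 8.60 CPM in vehicle. The 7 microglia markers summed to 174 to 177 CPM at the medium dose and 156 to 163 CPM in vehicle, with TYROBP at 0 counts in all 6 libraries and most of the sum in the lysosomal gene CD68 (154 CPM at the medium dose and 141 CPM in vehicle). The cells are an established line, and these sums are levels of marker genes, not measured shares of cell types. The part of these shifts in the results was not tested. In bulk RNA, fewer cells of a type and less RNA per cell cannot be told apart. Mitochondrially encoded genes took 5.738%, 5.55% and 5.786% of the counts at the medium dose and 5.101%, 5.025% and 5.286% in vehicle. The groups did not overlap in this share, which was 0.554 percentage points higher at the medium dose (exact two-sided permutation test, p = 0.1, the smallest that 3 against 3 libraries allow).

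Several of the responses described here are well known in cultured cells. The aryl hydrocarbon receptor (AhR) is a cytosolic receptor for planar aromatic molecules, many of them from plants. Once bound it pairs with ARNT in the nucleus and switches on detoxifying cytochromes together with its own repressors. The hypoxia-inducible factors also pair with ARNT and switch on glycolysis and vessel growth. YAP with TEAD, and SRF with its actin-sensing cofactors, read the tension of the actin skeleton and maintain genes of contractile and spread cells.

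The medium dose was followed by many small changes. Of 17190 genes tested, 1140 (6.63%) passed edgeR's quasi-likelihood test at a Benjamini-Hochberg adjusted p under 0.05, and these are called here. Of them 467 (2.72%) were higher and 673 (3.92%) lower at the medium dose, with a median absolute change of 0.21 on the log2 scale, and the median change of all genes was -0.0011. Only 25 called genes changed 2-fold or more (18 higher, 0.105% of the genes tested, and 7 lower, 0.0407%), and 3 of them had at least 5 CPM in either group. All 3 medium-dose libraries lay above all 3 vehicle libraries for 12.1% of the genes tested, and below them for 15.1%. Such separation was a condition for naming the 15 largest rises and falls, so for those genes it is not added evidence. The count was 643 without vehicle 1, 716 without vehicle 3, 631 without medium 2 and 686 without medium 3. Against the vehicle, 219 genes (1.27%) were called at the low dose and 5592 (32.5%) at the high dose. These counts were 81 to 139 with 1 library left out for the low dose, and 2866 for the high dose when only the compared groups were fitted. Between the medium and the low dose 18 genes (0.105%) were called, 12 higher (0.0698%) and 6 lower (0.0349%) at the medium dose, and between the high and the medium dose 2872 (16.7%), or 1739 without high 3 and 425 in a fit of these groups alone. These comparisons share libraries, so their calls are not independent. On the first principal component of the 12 libraries, which took 46.2% of the variance, the 3 medium-dose libraries (-1.6 to -0.6) lay between the low-dose and the high-dose libraries. The root mean square difference of group means was 0.116 (log2) for medium against vehicle, 0.0784 for medium against low and 0.153 for high against medium.

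**Figure D1:**
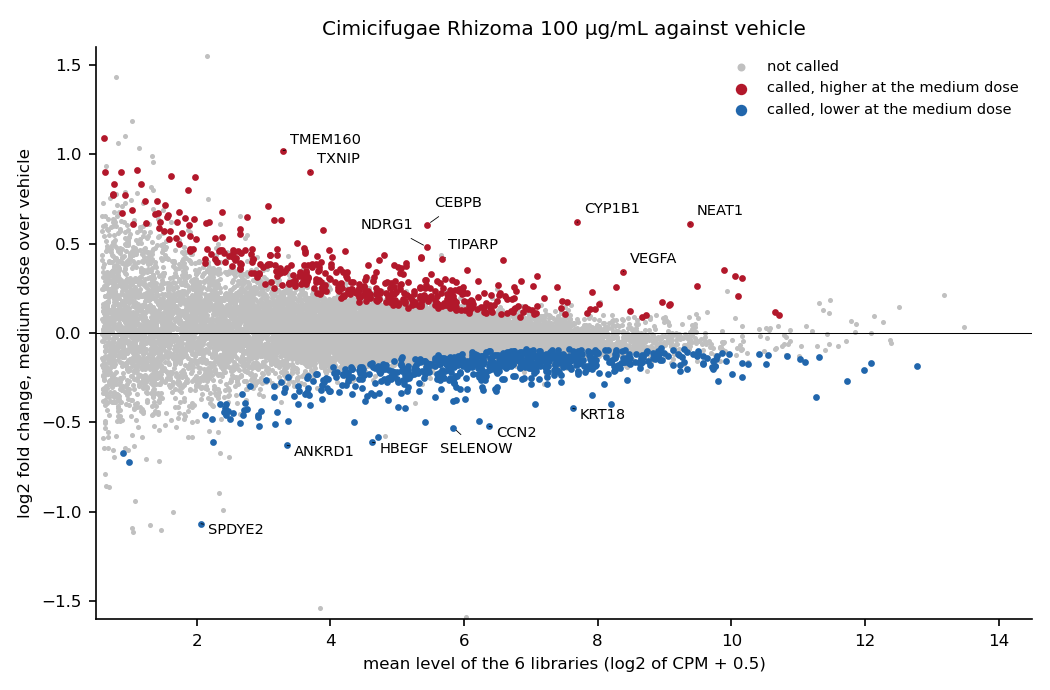
Log2 fold change of the medium dose over vehicle (vertical axis) against the mean level of the 6 libraries (horizontal axis, log2 of CPM + 0.5), 1 point per gene with a mean of at least 1 CPM, and 2 points outside the vertical axis. Called genes are red where higher and blue where lower at the medium dose, and most lie within 0.5 of the zero line.

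**Figure D2:**
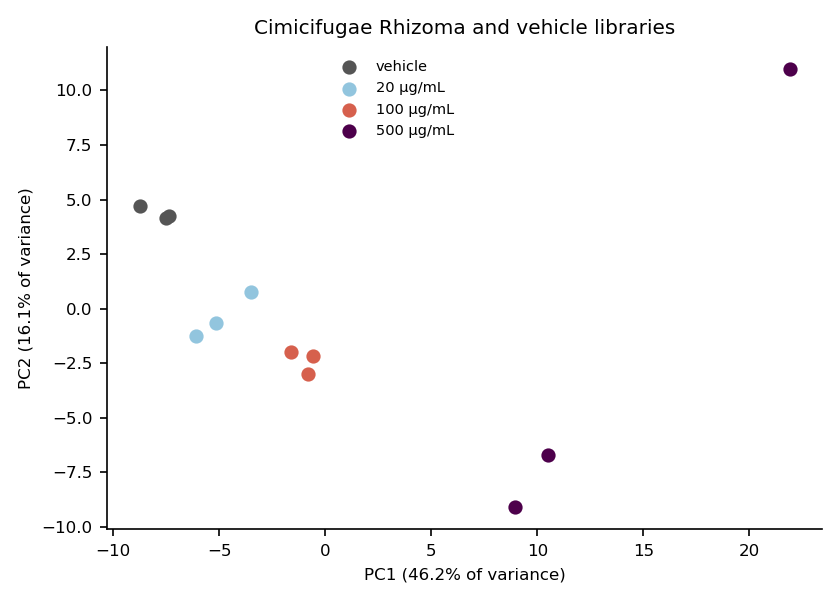
First 2 principal components of the 12 libraries of vehicle and of 20, 100 and 500 µg/mL Cimicifugae Rhizoma, 1 point per library. The 3 libraries at 100 µg/mL lie together between those at 20 and at 500 µg/mL, and 1 library at 500 µg/mL (high 3) stands apart from its group.

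AhR targets had the highest median of the gene lists. Of 7 tested (CYP1A2 was at 0 counts), 5 rose, 0 fell and 2 (ALDH3A1 and SERPINB2) were not called, with a median change of 0.41. Of all genes tested, 2.72% rose and 3.92% fell, the shares beside which each list count against vehicle stands. The oestrogen- and xenobiotic-oxidising cytochrome CYP1B1 (ENSG00000138061, GRCh38 chr2:38066973-38109902, - strand) had 253, 254 and 244 CPM in medium-dose cells, against 164, 163 and 162 CPM in vehicle cells. The groups were far apart for CYP1B1, and it rose by 0.62 ± 0.034 (log2, SE, n = 3 per group, edgeR's adjusted p = 1.31e-18). TIPARP, an ADP-ribosyltransferase that curbs AhR signalling (ENSG00000163659, chr3:156673235-156706770, + strand), had 58.4, 56.2 and 57.5 CPM at the medium dose, against 45.0, 41.4 and 43.0 CPM in vehicle. All 3 medium-dose libraries were above all vehicle libraries, a rise of 0.41 ± 0.045 (edgeR's adjusted p = 9.47e-09). The AhR repressor AHRR had 58.2, 57.4 and 56.96 CPM at the medium dose and 50.5, 49.1 and 52.1 CPM in vehicle. Its groups did not overlap either, but the rise was smaller, 0.19 ± 0.051 (edgeR's adjusted p = 0.0186). NQO1, a quinone reductase that is also an NRF2 target, had 195, 172 and 181 CPM at the medium dose and 154, 154 and 150 CPM in vehicle, a rise of 0.26 ± 0.052 (edgeR's adjusted p = 0.000925). The cytochrome CYP1A1 was near the limit of detection, at 1.201, 1.26 and 1.42 CPM at the medium dose and 0.554, 0.775 and 0.767 CPM in vehicle. Its groups were separate too, and it rose by 0.88 ± 0.263 (edgeR's adjusted p = 0.032). AHRR was not called without medium 1, medium 2, vehicle 1 or vehicle 2 (edgeR's adjusted p up to 0.0944), nor CYP1A1 without medium 2, medium 3 or any of the vehicle libraries (up to 0.166). The aldehyde dehydrogenase ALDH3A1 was at 0.686, 0.419 and 0.654 CPM at the medium dose and 0.302, 0.56 and 0.409 CPM in vehicle, with overlapping groups.

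The gene starts of called AhR targets are shown because AhR with ARNT binds the core GCGTG. These are the 250 bases before a start of each gene in RefSeq on GRCh38.p14, 5′ to 3′ on the gene's strand, with the core or its reverse complement CACGC in capitals. CYP1A1 and this start of AHRR hold 1 match each and this start of TIPARP holds 2, while 2 other TIPARP starts hold 0 and another AHRR start holds 2. No start of CYP1B1 was in the RefSeq set used, and NQO1 was not searched.
CYP1A1 chr15:74725529-74725778 (- strand): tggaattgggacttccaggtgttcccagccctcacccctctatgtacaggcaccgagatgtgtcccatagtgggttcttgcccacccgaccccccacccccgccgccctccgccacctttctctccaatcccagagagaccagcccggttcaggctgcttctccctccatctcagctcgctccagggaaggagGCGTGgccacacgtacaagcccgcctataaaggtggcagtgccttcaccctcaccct
TIPARP chr3:156674340-156674589 (+ strand): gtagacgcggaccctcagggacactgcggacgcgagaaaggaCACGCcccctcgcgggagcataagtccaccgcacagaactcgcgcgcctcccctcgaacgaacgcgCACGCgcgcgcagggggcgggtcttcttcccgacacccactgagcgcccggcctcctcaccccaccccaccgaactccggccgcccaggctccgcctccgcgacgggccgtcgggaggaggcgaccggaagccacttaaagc
AHRR chr5:321464-321713 (+ strand): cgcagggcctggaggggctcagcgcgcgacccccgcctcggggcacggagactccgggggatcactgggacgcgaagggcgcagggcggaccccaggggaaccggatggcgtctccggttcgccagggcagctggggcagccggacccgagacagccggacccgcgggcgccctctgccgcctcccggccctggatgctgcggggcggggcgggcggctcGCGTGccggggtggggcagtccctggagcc
The core was present on either strand in 32.2% of 35116 such windows, so a match is common, and it is a match of letters, not a measured site.

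Of the AhR targets, CYP1B1 rose at every step of the dose series. It averaged 192 CPM at 20, 250 CPM at 100 and 329 CPM at 500 µg/mL. Its rise was already called at the low dose (0.24 against vehicle, edgeR's adjusted p = 3.64e-05), and each further step was called as well (0.38 for medium over low and 0.40 for high over medium). TIPARP and AHRR averaged 44.4 and 48.8 CPM at the low dose, with differences from vehicle of 0.04 and -0.05 that were not called. From the low to the medium dose they rose by 0.37 and 0.24 (edgeR's adjusted p = 3.64e-07 and 0.0375), and AHRR lost this call in all 6 fits without a library (edgeR's adjusted p up to 0.25). ALDH1A3, a retinaldehyde dehydrogenase outside the list, had 770, 762 and 820 CPM at the medium dose and 643, 666 and 654 CPM in vehicle. It rose by 0.26 ± 0.030 against vehicle (edgeR's adjusted p = 3.84e-08), and by 0.23 against the low dose, which was at 667 CPM.

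**Figure D3:**
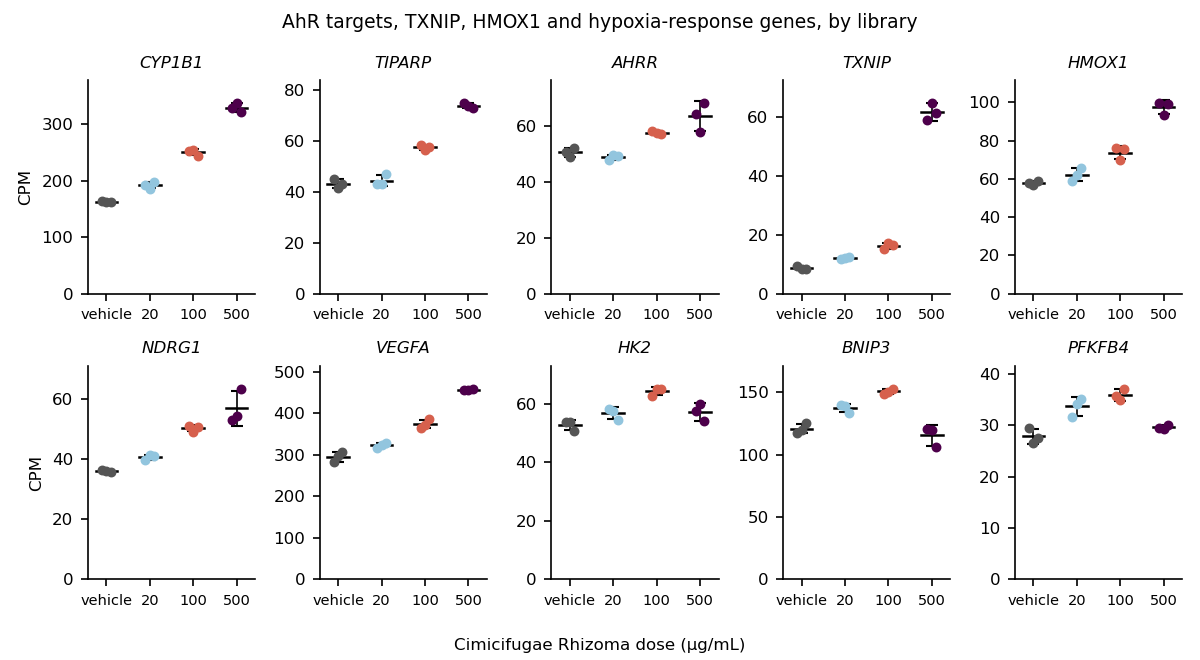
Level in CPM (vertical axis, starting at 0) of 10 genes in each library of vehicle and of 20, 100 and 500 µg/mL Cimicifugae Rhizoma (horizontal axis). Points are libraries, and the bar and whiskers are the mean and SD of 3. CYP1B1, TIPARP, TXNIP and HMOX1 are highest at 500 µg/mL, whereas HK2, BNIP3 and PFKFB4 are highest at 100 µg/mL.

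Genes of hypoxia and glycolysis changed in 1 direction where they were called. Of 28 tested, 9 rose (2.72% of all genes did), 0 fell and 19 were not called, with a median of 0.12. NDRG1, a differentiation-associated gene induced by low oxygen, had 51.1, 49.2 and 50.7 CPM at the medium dose and 36.6, 36.01 and 35.6 CPM in vehicle. It rose by 0.48 ± 0.055 (edgeR's adjusted p = 3.84e-08), and the groups were well apart. The vessel growth factor VEGFA had 364, 371 and 385 CPM at the medium dose and 282, 296 and 306 CPM in vehicle. The rise was 0.34 ± 0.031 (edgeR's adjusted p = 1.06e-10), again with no overlap. Glucose handling was represented by hexokinase HK2 (0.28 ± 0.041), the bifunctional fructose bisphosphate enzyme PFKFB4 (0.37 ± 0.052), the enolase ENO2 (0.22 ± 0.044) and the glucose transporters SLC2A1 (0.14 ± 0.036) and SLC2A3 (0.14 ± 0.039), all called. BNIP3, which directs mitochondria to autophagy, had 148, 150 and 153 CPM at the medium dose, against 118, 120 and 125 CPM in vehicle, a rise of 0.32 ± 0.047 (edgeR's adjusted p = 6.68e-06). The collagen prolyl hydroxylase P4HA1 rose by 0.14 ± 0.038. The calls of SLC2A1, SLC2A3 and P4HA1 were lost without vehicle 3, and those of SLC2A3 and P4HA1 also without vehicle 2 or medium 2, with edgeR's adjusted p up to 0.0582, 0.178 and 0.143. P4HA1 was lost without medium 1 too. Outside the list, the brain aldolase ALDOC had 10.6, 9.77 and 10.3 CPM at the medium dose and 7.00, 6.59 and 6.13 CPM in vehicle (0.63 ± 0.087, edgeR's adjusted p = 1.45e-06), and the inhibitor of mTOR signalling DDIT4 rose by 0.41 ± 0.077 (edgeR's adjusted p = 0.000349).

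At the high dose against the medium dose, 4 of these 28 genes rose and 12 fell, beside 7.5% (higher) and 9.21% (lower) of all genes. Calls in this comparison were fewer without high 3, which stands apart, or in these groups alone, as given above. BNIP3 fell by 0.38 at the high dose, to a mean of 115 CPM, PFKFB4 by 0.28, to 29.6 CPM, and HK2 by 0.17, to 57.2 CPM (edgeR's adjusted p = 2.2e-08, 8.29e-05 and 0.0016). VEGFA rose further by 0.29, to 456 CPM. From the low to the medium dose, 4 members rose, NDRG1 by 0.31, VEGFA by 0.21, ANGPTL4 by 0.34 and HK2 by 0.18. At this step HK2 lost the call in all 6 fits without a library and in the compared groups alone, with or without the replicate block (edgeR's adjusted p up to 0.234). ANGPTL4 lost it without low 1, low 3, medium 2 or medium 3 (up to 0.281), and NDRG1 without low 1 (0.0529). ANGPTL4, an inhibitor of lipoprotein lipase, had 18.2, 18.9 and 20.1 CPM at the medium dose and 17.6, 15.6 and 19.7 CPM in vehicle, where the groups overlapped and the difference was not called.

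The starts of HK2 and BNIP3 are shown as examples of this group, from RefSeq on GRCh38.p14. Capitals mark ACGTG, the form of the hypoxia-inducible factors' core searched here, or its reverse complement. Another HK2 start holds 2 matches, and no start of VEGFA was in the RefSeq set used.
HK2 chr2:74834920-74835169 (+ strand): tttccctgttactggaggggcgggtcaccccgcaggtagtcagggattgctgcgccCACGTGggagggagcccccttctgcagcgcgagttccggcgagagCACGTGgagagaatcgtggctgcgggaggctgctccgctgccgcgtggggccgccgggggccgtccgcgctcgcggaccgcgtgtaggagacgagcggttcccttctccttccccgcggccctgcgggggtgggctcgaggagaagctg
BNIP3 chr10:131981924-131982173 (- strand): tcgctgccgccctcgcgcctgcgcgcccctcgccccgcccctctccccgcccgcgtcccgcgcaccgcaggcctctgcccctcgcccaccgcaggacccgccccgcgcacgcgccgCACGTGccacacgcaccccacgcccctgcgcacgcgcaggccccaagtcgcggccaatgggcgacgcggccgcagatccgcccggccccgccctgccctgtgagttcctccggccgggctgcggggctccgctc
Either strand of the core was found in 18.5% of the 35116 windows. The letters CACGTG, in both windows, match on both strands, so each stretch counts as 2 of the 4 matches of this HK2 start and of the 2 of BNIP3, and the PFKFB4 window holds 0.

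TXNIP, an arrestin-like protein that binds thioredoxin and limits glucose uptake, was among the largest rises (ENSG00000265972, chr1:145992435-145996600, - strand). It had 15.1, 17.2 and 16.5 CPM at the medium dose, against 9.31, 8.44 and 8.38 CPM in vehicle. The groups did not overlap, and it rose by 0.90 ± 0.090 (edgeR's adjusted p = 9.79e-10). It was called at each step, by 0.48 from vehicle to the low dose, 0.43 to the medium dose and 1.92 to the high dose, where it averaged 61.6 CPM. The step from low to medium was lost without low 1, low 2, medium 2 or medium 3 (edgeR's adjusted p up to 0.143). Of 14 glucose sensor and FOXO targets, 3 rose (2.72% of all genes did) and 0 fell (median 0.18). The rises were those of TXNIP, the cyclin-like CCNG2 (0.38 ± 0.066) and the insulin receptor substrate IRS2 (0.22 ± 0.051). ARRDC4, a paralog of TXNIP, had 6.22, 7.54 and 6.72 CPM at the medium dose and 5.74, 6.50 and 6.03 CPM in vehicle, with overlapping groups (0.16 ± 0.100, not called). KLF9, a zinc finger factor induced by steroid hormones, rose by 0.29 ± 0.049 (edgeR's adjusted p = 5.48e-05), with 78.4, 79.5 and 85.4 CPM at the medium dose and 66.0, 66.2 and 66.5 CPM in vehicle, and was the only 1 called of 9 glucocorticoid targets. The guanine deaminase GDA rose by 0.30 ± 0.046 (edgeR's adjusted p = 1.13e-05).

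Rises outnumbered falls among the 30 NRF2 targets, with 8 against 1 (median 0.05), and 21 were not called. Of all genes, 2.72% rose and 3.92% fell. The called members include genes of haem and iron handling. Haem oxygenase HMOX1 had 76.1, 69.8 and 75.5 CPM at the medium dose, against 57.8, 56.8 and 58.8 CPM in vehicle. The groups did not overlap, and it rose by 0.35 ± 0.047 (edgeR's adjusted p = 6.67e-07). The ferritin heavy chain FTH1 had 1295, 1237 and 1269 CPM at the medium dose and 879, 1040 and 1147 CPM in vehicle, where vehicle 1 was the lowest. It rose by 0.31 ± 0.058 (edgeR's adjusted p = 0.000315), and the light chain FTL by 0.21 ± 0.052 (edgeR's adjusted p = 0.00752). The conjugate exporter ABCC3 (0.26 ± 0.055), NQO1, the iron-binding pirin PIR (0.24 ± 0.060), the cystine transporter SLC7A11 (0.19 ± 0.053) and the autophagy receptor SQSTM1 (0.16 ± 0.037) rose too, and UGDH, which makes the sugar donor of glucuronidation, fell by 0.14. The calls of FTL, PIR, SLC7A11, SQSTM1 and UGDH were lost in at least 1 fit without a library, with edgeR's adjusted p up to 0.0677, 0.0772, 0.0814, 0.0756 and 0.174. The high dose called 25 of the 30 higher against the medium dose, where 7.5% of all genes were. This count was not repeated without high 3 or in these groups alone, where all calls fell to 1739 and 425. HMOX1 was the member called from the low to the medium dose (0.25, edgeR's adjusted p = 0.00587).

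In the amino acid response of ATF4, 5 of 24 genes rose (2.72% of all genes did), 1 fell (3.92%) and 18 were not called (median 0.08). The rises were those of CEBPB (0.61 ± 0.130), DDIT4, the mitochondrial folate enzyme ALDH1L2 (0.22 ± 0.071), SLC7A11 and the secreted glycoprotein STC2 (0.16 ± 0.035), and the arginine transporter SLC7A1 fell by 0.18. Among 17 ER chaperones, HSP90B1 (0.12 ± 0.029), CALR (0.10 ± 0.030) and HERPUD1 (0.16 ± 0.049) rose and 0 fell, with a median of 0.01. Of 14 heat shock proteins, HSPA1A and HSPA1B rose by 0.27 ± 0.049 and 0.29 ± 0.053 and HSP90AB1 fell by 0.18. HSPA1A and HSPA1B are near-identical copies, so how reads were divided between them is uncertain. They averaged 146 and 126 CPM at the low dose and 145 and 133 CPM at the high dose, which are close to the medium-dose level. ALDH1L2, CALR and HERPUD1 lost the call in 3 to 6 of the 6 fits without a library, and HSP90B1 without vehicle 3 or medium 1.

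Every called target of YAP or SRF fell. The YAP list had 5 falls and 0 rises among its 14 members (median -0.14). Of 17 SRF and contractile genes, 0 rose, 10 fell and 7 were not called (median -0.17), beside 3.92% of all genes that fell. CCN2, a matrix-associated growth factor (ENSG00000118523, chr6:131948176-131951373, - strand), had 63.7, 65.3 and 74.2 CPM at the medium dose, against 97.9, 94.0 and 100 CPM in vehicle. The groups were far apart, and it fell by 0.52 (SE 0.059, edgeR's adjusted p = 2.2e-08). ANKRD1, a stretch-induced nuclear cofactor (ENSG00000148677, chr10:90912096-90921276, - strand), had 7.80, 7.08 and 7.92 CPM at the medium dose and 13.4, 9.30 and 12.9 CPM in vehicle. Vehicle 2 was the lowest of its group but still above the medium-dose libraries, and ANKRD1 fell by 0.63 (SE 0.121, edgeR's adjusted p = 0.00048). CCN1, a relative of CCN2, had 185, 166 and 186 CPM at the medium dose and 199, 193 and 220 CPM in vehicle, a fall of 0.19 (SE 0.054, edgeR's adjusted p = 0.0241) that was lost without vehicle 3 or medium 2. The growth factor-binding membrane protein CRIM1 and the ecto-nucleotidase NT5E fell by 0.19 and 0.15.

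The windows before the starts of CCN2 and ANKRD1 are shown because both genes are known targets of YAP with TEAD. They come from RefSeq on GRCh38.p14, with the core GGAATG in capitals. CCN2 holds 3 matches and ANKRD1 holds 2, beside 11.9% of the 35116 windows with at least 1 match on either strand.
CCN2 chr6:131951373-131951622 (- strand): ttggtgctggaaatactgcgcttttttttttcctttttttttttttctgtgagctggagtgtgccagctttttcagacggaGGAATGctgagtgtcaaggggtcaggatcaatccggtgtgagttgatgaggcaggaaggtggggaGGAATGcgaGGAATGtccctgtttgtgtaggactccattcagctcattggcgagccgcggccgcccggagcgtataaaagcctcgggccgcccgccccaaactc
ANKRD1 chr10:90921088-90921337 (- strand): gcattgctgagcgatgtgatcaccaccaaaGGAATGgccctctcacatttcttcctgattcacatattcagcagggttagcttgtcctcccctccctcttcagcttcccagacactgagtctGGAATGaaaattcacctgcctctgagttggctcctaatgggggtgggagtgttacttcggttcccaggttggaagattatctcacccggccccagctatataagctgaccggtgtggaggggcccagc

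Among the cytoskeletal members, actin ACTG1 had 3058, 3060 and 3126 CPM at the medium dose, against 3721, 3669 and 3747 CPM in vehicle. There was no overlap, and it fell by 0.27 (SE 0.037, edgeR's adjusted p = 1.51e-06). The focal adhesion protein VCL had 372, 371 and 371 CPM at the medium dose and 425, 430 and 420 CPM in vehicle, a fall of 0.20 (SE 0.030, edgeR's adjusted p = 1.33e-05). The other falls were those of smooth muscle actin ACTA2 (-0.32), the calponin CNN2 (-0.22), TAGLN (-0.19), ACTB (-0.19), filamin FLNA (-0.17), tropomyosin TPM1 (-0.16), the myosin heavy chain MYH9 (-0.14) and caldesmon CALD1 (-0.12). TAGLN and MYH9 were lost in 4 of the 6 fits without a library each and CALD1 in 2 of them, without vehicle 1 or medium 3. At the low dose against vehicle 4 YAP and 3 SRF genes were already called lower (medians -0.10 and -0.11). Of all genes, 1.27% were called there in either direction. From the low to the medium dose 0 genes of either list were called (medians 0.002 and -0.079). At the high dose against the medium dose 9 YAP and 12 SRF genes fell and 1 SRF gene rose, beside 9.21% and 7.5% of all genes. These last counts were not repeated without high 3 or in these groups alone. The mesenchymal and endothelial marker sums given above were lower at the medium dose too. Of the 9 mesenchymal markers 1 was called lower, the filament gene VIM described below, and of 4 endothelial markers tested 1 was. Of all genes, 3.92% were called lower. The part of these marker sums in the falls was not tested.

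**Figure D4:**
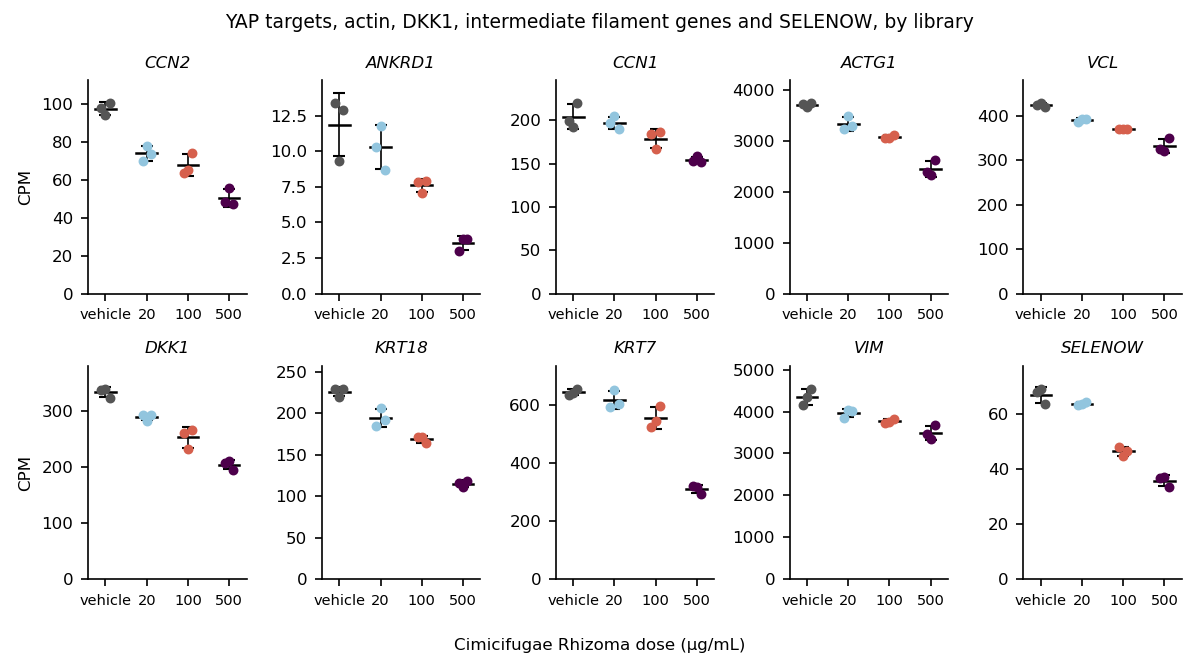
Level in CPM (vertical axis, starting at 0) of 10 genes in each library of vehicle and of 20, 100 and 500 µg/mL Cimicifugae Rhizoma (horizontal axis). Points are libraries, and the bar and whiskers are the mean and SD of 3. Levels step down along the doses for CCN2, ACTG1, VCL and KRT18, while SELENOW is near the vehicle level at 20 µg/mL and lower at 100 µg/mL.

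Intermediate filament genes had the lowest median of the lists. Of 12 tested, 0 rose, 6 fell (3.92% of all genes did) and 6 were not called. The median was -0.21, and -0.04 at the low dose and -0.47 at the high dose against vehicle. The epithelial keratin KRT18 (ENSG00000111057, chr12:52948871-52952901, + strand) had 171, 172 and 164 CPM at the medium dose, against 230, 220 and 229 CPM in vehicle. The groups were well apart, and it fell by 0.42 (SE 0.043, edgeR's adjusted p = 2.19e-09), and by 0.20 from the low to the medium dose (edgeR's adjusted p = 0.0319). VIM, the main filament protein of mesenchymal and glial cells, had 3732, 3751 and 3829 CPM at the medium dose and 4149, 4338 and 4545 CPM in vehicle. It fell by 0.20 (SE 0.032, edgeR's adjusted p = 2.37e-05) with no overlap. KRT7, KRT8, the neurofilament NEFL and the progenitor filament NES fell by 0.21, 0.23, 0.45 and 0.31, and each of these calls was lost in 2 to 6 of the 6 fits without a library. KRT8 and KRT18 have exons on opposite strands of the same stretch, and since the strand setting of the counting is not given, their reads may not have been told apart.

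The matrix and growth factor lists moved little, beside 2.72% higher and 3.92% lower of all genes. Of 14 TGF-beta targets, 2 fell and 1 rose (median -0.07). Among the called members the feedback inhibitor PMEPA1 fell by 0.17 and the AP-1 member JUNB rose by 0.24 ± 0.069, a call lost without vehicle 1, vehicle 2, medium 2 or medium 3. Of 15 collagens, 0 were called (median -0.05). Among 18 elastic fibre and crosslinking genes, the transglutaminase TGM2 (-0.20) and LOXL4 (-0.40, at 3.30 to 4.36 CPM at the medium dose and 4.78 to 5.64 CPM in vehicle) fell, LOXL4 with the call lost in 4 fits without a library. Of 15 matrix glycoproteins, tenascin TNC fell by 0.18 and the laminin chain LAMA4 rose by 0.10. The BMP antagonist GREM1 rose by 0.27 ± 0.069, a call lost without vehicle 3 or medium 3, and was the only 1 called of 13 BMP targets. The WNT inhibitor DKK1 had 260, 231 and 266 CPM at the medium dose and 338, 339 and 322 CPM in vehicle, a fall of 0.40 (SE 0.047, edgeR's adjusted p = 5.02e-08), and was the only 1 called of 9 WNT feedback genes and receptors.

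Of 24 inflammatory and NF-kB genes, 5 fell (3.92% of all genes did), 1 rose (2.72%) and 18 were not called (median -0.06). At the low dose against vehicle the median of this list was -0.13. The monocyte chemokine CCL2 had 17.3, 14 and 18.4 CPM at the medium dose, against 23.9, 21.5 and 25.1 CPM in vehicle. The groups did not overlap, and it fell by 0.50 (SE 0.093, edgeR's adjusted p = 0.000345). The cytokine LIF (-0.35), the prostaglandin synthase PTGS2 (-0.30), TNFSF15 (-0.25) and the NF-kB inhibitor TNFAIP3 (-0.22) fell and complement C3 rose by 0.20 ± 0.054. LIF had 19.3, 18.9 and 22.03 CPM at the medium dose and averaged 17.8 CPM at the low dose, and PTGS2 had 83.3, 76.8 and 81.6 CPM at the medium dose and averaged 75.6 CPM at the low dose, so both were as low at the low dose. The list named EGF receptor ligands had 8 genes tested, the receptor itself among them, and not all are ligands of that receptor. In this list HBEGF had 20.6, 17.0 and 20.0 CPM at the medium dose and 28.5, 27.8 and 31.8 CPM in vehicle, a fall of 0.61 (SE 0.073, edgeR's adjusted p = 7.97e-08). NRG1 fell by 0.27, and TGFA and EPGN rose by 0.24 ± 0.064 and 0.47 ± 0.140. TNFSF15, TNFAIP3, C3, NRG1, TGFA and EPGN each lost the call in at least 3 of the 6 fits without a library. Of 26 interferon-stimulated genes, 0 were called (median 0.04).

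Part of the lipid synthesis genes fell. Of 24 cholesterol synthesis genes, 4 fell (3.92% of all genes did) and 0 rose (median -0.06), among them the synthase HMGCS1 (-0.27) and the epoxidase SQLE (-0.15). Of 11 fatty acid synthesis genes, FASN (-0.19), SREBF1 (-0.18), SCD (-0.17), ELOVL5 (-0.15) and ACLY (-0.13) fell and the desaturase FADS1 rose by 0.12 ± 0.036. SQLE was lost without medium 1 or medium 3, and SREBF1 and FADS1 in 4 fits each. At the low dose against vehicle, 3 cholesterol synthesis genes were already lower (median -0.045) and 0 fatty acid synthesis genes were called (median -0.06). From the low to the medium dose 0 genes of either list were called (medians -0.001 and -0.053). Of 11 targets of the lipid-sensing receptors, the mitochondrial acyl-CoA dehydrogenase ACADVL rose by 0.26 ± 0.042 (edgeR's adjusted p = 3.55e-05) and 0 fell.

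Protein production and growth changed in a minority of members, beside 2.72% higher and 3.92% lower of all genes. Of 28 ribosomal protein genes, 7 fell and 0 rose (median -0.11), with RPL10 (-0.17) and RPS16 (-0.15) the largest falls, and of 25 proteasome subunits, 4 fell and 0 rose (median -0.09), with PSMC4 and PSMD2 at -0.15 each. RPL10 lost the call in 3 and PSMD2 in all 6 of the fits without a library, and RPS16 and PSMC4 without medium 2. NPM1, a nucleolar chaperone of ribosome assembly, had 948, 953 and 958 CPM at the medium dose, against 1110, 1107 and 1141 CPM in vehicle. There was no overlap, and it fell by 0.23 (SE 0.030, edgeR's adjusted p = 6.13e-07). Of 21 p53 targets, PLK3 (-0.33), the exonuclease AEN (-0.27) and GADD45A (-0.24) fell and 0 rose, with PLK3 lost in 4 fits without a library and GADD45A in 2. Of 23 mitosis genes, 2 rose, the centromere histone CENPA (0.30 ± 0.085) and the topoisomerase TOP2A (0.17 ± 0.033), and 3 fell, CDC20, KIF23 and CCNB1, by 0.12 to 0.13. CENPA lost the call without vehicle 1, vehicle 2 or medium 3 CDC20 in 4 and KIF23 in 3 fits without a library, and CCNB1 without any of the 6 libraries. Of 24 DNA replication genes 0 were called. The tubulins TUBB6 (-0.22) and TUBB (-0.16) fell among 11, the clock repressor CRY1 (-0.20) among 15 clock genes, and SPRY4, a brake on MAP kinase signalling (-0.28), among 21 immediate early genes, where JUNB rose. The call of SPRY4 was lost without vehicle 3 or medium 1. Of 13 mitochondrially encoded protein genes (median 0.13), 27 nuclear genes of oxidative phosphorylation (median -0.06) and 5 metallothioneins and zinc exporter (median 0.08), 0 were called. SQSTM1 was the only 1 called of 25 lysosome and autophagy genes. A single call in a list of 15 or 25 genes is near the 6.63% called of all genes.

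**Figure D5:**
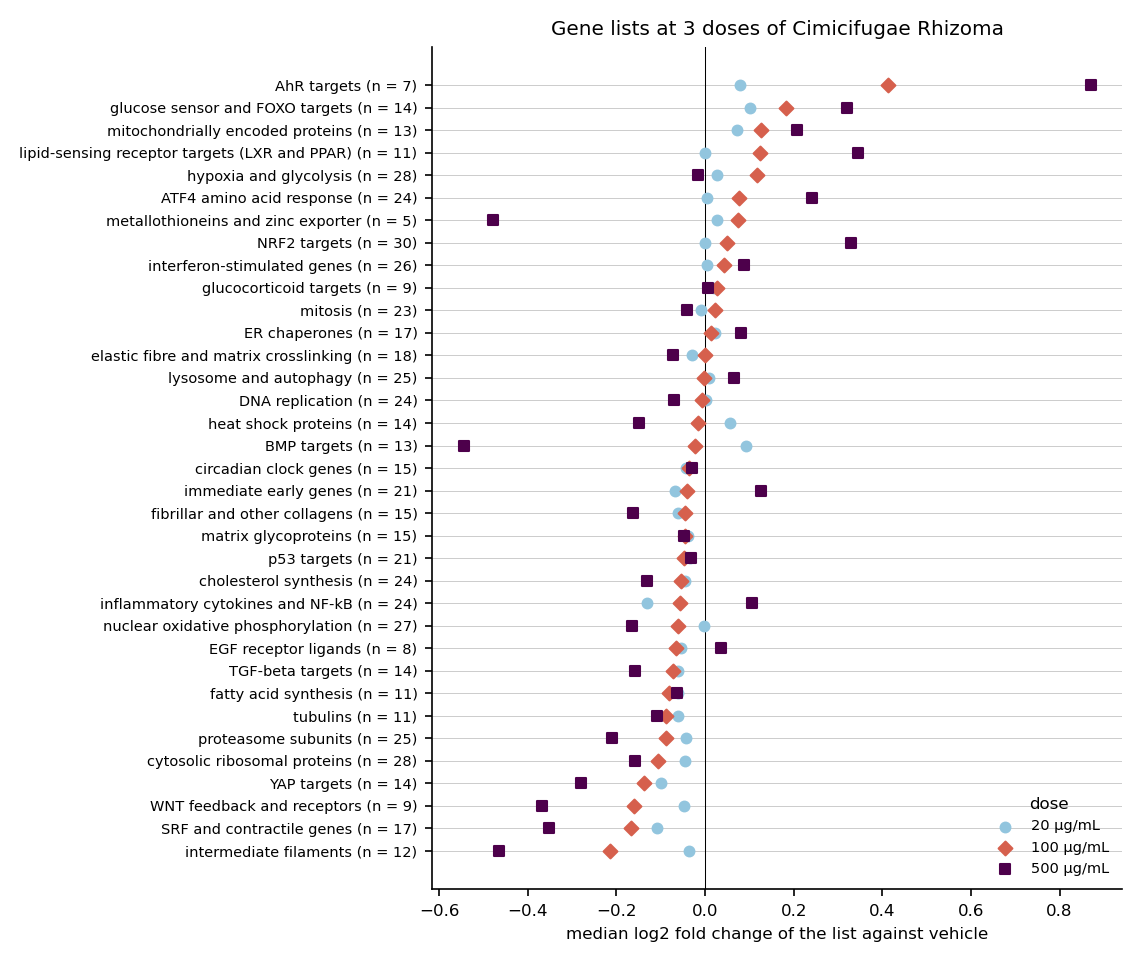
Median log2 fold change against vehicle (horizontal axis) of each gene list (vertical axis, with its number of genes tested) at 20, 100 and 500 µg/mL Cimicifugae Rhizoma. At 100 µg/mL the AhR targets have the highest median (0.41) and the intermediate filaments the lowest (-0.21), and the hypoxia and glycolysis list lies above zero at 100 but not at 500 µg/mL.

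The 15 largest rises and 15 largest falls with at least 5 CPM in the higher group and no overlap between groups include genes of no list. The mitochondrial protein gene TMEM160 had 10.8, 13.3 and 13.3 CPM at the medium dose and 2.42, 7.24 and 8.74 CPM in vehicle. Vehicle 1 was far below the others, and the rise of 1.02 ± 0.267 (edgeR's adjusted p = 0.0121) was lost without vehicle 1, where it was 0.66, and without medium 3. The nuclear RNA NEAT1, the scaffold of paraspeckles, had 746, 819 and 848 CPM at the medium dose, against 486, 551 and 544 CPM in vehicle. The groups were wide apart, and it rose by 0.61 ± 0.072 (edgeR's adjusted p = 5.02e-08). CEBPB, a factor of stress and acute-phase genes, had 44.6, 51.1 and 60.4 CPM at the medium dose and 28.3, 35.7 and 38.9 CPM in vehicle, both groups spread widely (0.61 ± 0.130, edgeR's adjusted p = 0.00166). The other rises were those of the RNA genes FER1L4 (0.71) and LUCAT1 (0.65), the ciliary gene CFAP70 (0.68), IGFN1 (0.63), ANKZF1, which releases stalled chains from ribosomes (0.58), the death receptor TNFRSF25 (0.55), STAG3L1 (0.54), FEM1A, a substrate receptor of ubiquitin ligases (0.53) and POLR1HASP (0.51). LUCAT1 is annotated as antisense, STAG3L1 and POLR1HASP as pseudogenes, and their values are uncertain. FEM1A lost the call without vehicle 1, and STAG3L1 without vehicle 1, vehicle 3, medium 1 or medium 3.

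Among the falls, SELENOW, a small selenoprotein with a redox motif (ENSG00000178980, chr19:47778572-47784686, + strand), had 48.0, 44.9 and 46.7 CPM at the medium dose, against 68.0, 69.3 and 63.8 CPM in vehicle. It fell by 0.53 (SE 0.049, edgeR's adjusted p = 1.12e-10), and the low dose was close to vehicle, at 63.9 CPM. The decoy death receptor TNFRSF10D had 35.1, 35.3 and 35.0 CPM at the medium dose and 50.3, 48.9 and 49.4 CPM in vehicle, a fall of 0.50 (SE 0.047, edgeR's adjusted p = 1.9e-10). The groups did not overlap for either gene. The membrane-anchored semaphorin SEMA7A had 62.5, 59.8 and 62.5 CPM at the medium dose and 82.3, 85.1 and 92.5 CPM in vehicle (-0.49, SE 0.054, edgeR's adjusted p = 1.47e-08). Lower levels were found for the sphingosine phosphate receptor S1PR1 (-0.61), the vesicle protein SYTL3 (-0.52), the diacylglycerol kinase DGKB (-0.51), ISLR2 (-0.50), THSD1 (-0.49), IFITM10 (-0.48) and the pseudogene RPL18AP3 (-0.47), all called. Of these, DGKB lost the call without medium 3, and IFITM10 and RPL18AP3 in 3 fits without a library each. SPDYE2, of a family of close copies, had 2.62, 0.964 and 3.49 CPM at the medium dose and 5.79, 5.21 and 4.04 CPM in vehicle, and its fall of 1.07 was lost without medium 2, the lowest library (edgeR's adjusted p = 0.0637).

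Among these genes, NEAT1 averaged 727 CPM at the low and 850 CPM at the high dose, CEBPB 47.4 and 51.3 CPM, TMEM160 12.4 and 11.3 CPM, TNFRSF25 6.34 and 6.95 CPM and CCL2 17.4 and 15.3 CPM. None of these 5 was called between the medium dose and the low dose, the high dose or Citri Unshius Pericarpium at 100 µg/mL, which share a code set. For such genes the part of code set and DMSO cannot be told apart from that of the extract. Of the 15 largest rises, 2 were called against the low dose, 6 between the high and medium doses and 2 against Citri Unshius Pericarpium. Of the 15 largest falls, these counts were 1, 8 and 5. Of all genes tested, 0.105%, 16.7% and 0.669% were called there in either direction. As given above, high against medium had fewer calls in these groups alone.

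The comparison with the low dose lies within the code set. It shares the medium-dose libraries with the comparison against vehicle, in which ANGPTL4 and GRHL1 were not called. The 12 rises were CYP1B1, TIPARP, AHRR, ALDH1A3, TXNIP, NDRG1, VEGFA, ANGPTL4, HK2, HMOX1, KLF9 and GDA, and the 6 falls were SELENOW, KRT18, NPM1, the long noncoding RNA UCA1, the potassium channel KCNMA1 and the epithelial factor GRHL1. SELENOW fell by 0.46 (edgeR's adjusted p = 1.73e-08), with low-dose libraries averaging 63.9 CPM. KCNMA1 had 104, 105 and 108 CPM at the medium dose and averaged 118 CPM at the low dose, against 124, 129 and 127 CPM in vehicle, a fall of 0.15 from the low dose (edgeR's adjusted p = 0.0242) and of 0.26 from vehicle. GRHL1 was near the limit of detection, at 0.172, 0.377 and 0.436 CPM at the medium dose and 0.997 CPM on average at the low dose. CYP1B1, TIPARP, ALDH1A3, VEGFA and SELENOW kept the call in each of the 14 other settings tried, and the other 13 lost it in at least 1. AHRR, HK2, NPM1, UCA1 and GRHL1 lost it in all 6 fits without a library, and KCNMA1 and KRT18 in 5 of the 6. The count was 7 without low 1, 10 without medium 2 or low 2, 9 without medium 3 and 11 without low 3.

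Set against Citri Unshius Pericarpium at the same dose and in the same code set, 115 genes (0.669%) were called, 55 higher (0.32%) and 60 lower (0.349%) with Cimicifugae Rhizoma. That fit takes no pairs, and with the replicate number as a block 140 genes were called in the fit of all groups. In a fit of these groups alone 314 genes were called without the block and 489 with it, and with 1 library left out of the fit of all groups 53 to 73 were called. Of the 7 AhR targets 4 were higher with Cimicifugae Rhizoma and 0 lower. CYP1B1 was higher by 0.39 (edgeR's adjusted p = 4.03e-11) and TIPARP by 0.32 (edgeR's adjusted p = 1.06e-05). HMOX1 was higher by 0.28, NDRG1 by 0.24 and VEGFA by 0.21, while SELENOW was lower by 0.49, KRT18 by 0.22 and CCN2 by 0.26. DDIT4 differed by -0.02 and BNIP3 by 0.15, neither of them called. These 2 extracts differ in their herb and were each present in 3 libraries.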

How the data were processed

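RNA of SW1783 cells was sequenced as paired 100 bp ends on an MGI instrument from directional mRNA libraries, per the labels' protocols. RSEM 1.3.3, STAR 2.7.3a, Trim Galore 0.6.5 and FastQC 0.11.9 with the builds GRCh38 and hg38 are named in the submitters' processing notes. Read filters, annotation release and strand setting were not given in the sources used here. The deposited values were RSEM's expected counts (estimated counts) per gene, for 60675 genes in 60 libraries, and 9.22% were not whole. RSEM divides reads that fit several places, so close paralogs are uncertain. Of the 146 genes named, 70 have an exon that overlaps an exon on the opposite strand in GENCODE v29 (GRCh38), from which coordinates come, and for these the strand setting matters.

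Expected counts were rounded. The 57 libraries of the 19 groups with 3 libraries were fitted together after filterByExpr (17190 genes) and TMM scaling with edgeR 4.0.16 in R 4.3.3 (glmQLFit, glmQLFTest), and genes with a Benjamini-Hochberg adjusted p under 0.05 were called. Errors of fold changes are SE of that fit. The test was tried on simulated counts with known changes. Replicate pairs of the medium dose and of the vehicle differed beyond sampling noise (chi-square of 2.11 to 2.72 per degree of freedom). Counting error limits low genes, which had a filter but no other floor.

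Genes named are the 15 largest called rises and falls against vehicle with a symbol, at least 5 CPM in the higher group and no overlap of libraries. Also named are up to 10 each way called with the same sign against vehicle and the low dose. The 8 largest each way against Citri Unshius Pericarpium were named under the same conditions of symbol, level and no overlap. All genes called against the low dose and members of the gene lists were named too. Some named by these rules are not reported here. The genes called against the low dose beyond the 10 were added after their values were seen. The comparison, lists and rules were chosen with earlier results of these data known. Alternatives were RLE factors, DESeq2 1.42.0, other filters, the compared groups alone, the replicate number as a block, and leaving out libraries. Same-numbered libraries of the medium dose and Citri Unshius Pericarpium correlated at 0.121, 0.108 and 0.381 in their deviations from the group means. Libraries with unlike numbers ran from -0.284 to 0.19, with medium 1 and Citri Unshius Pericarpium 2 at 0.19, so pairing is uncertain. The reported calls come from a fit without pairs, and the number was a block only in alternatives. For the medium dose and the vehicle, which were not taken as pairs, same-numbered libraries correlated at 0.077, 0.00932 and 0.186. Those with unlike numbers ran from -0.175 to 0.107, so pairing is uncertain there too.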

Additional observations from a re-analysis of the deposited data

Results flagged for a closer look

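Between the medium dose of Cimicifugae Rhizoma and Citri Unshius Pericarpium at the same 100 µg/mL, 115 genes differed. The difference between the extracts itself passed edgeR's test for these genes, which is why they are listed here, and values are log2 differences of Cimicifugae Rhizoma minus Citri Unshius Pericarpium over 3 libraries each. Of the genes named in the text 40 were among the 115, and in all 40 the libraries of the 2 extracts did not overlap. No overlap was a condition for naming the largest differences between the extracts, so for those genes it is not added evidence. For the others of the 40, the calls and the lack of overlap come from the same libraries.

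Among the targets of the aryl hydrocarbon receptor (AhR), a sensor of planar aromatic compounds, CYP1B1 differed by 0.39, TIPARP by 0.32, AHRR by 0.23 and SERPINB2 by 0.35. SERPINB2, a protease inhibitor, averaged 27.4 CPM with Cimicifugae Rhizoma and 21.4 CPM with Citri Unshius Pericarpium, though its difference of 0.13 from vehicle was not called. Against vehicle it was 0.21 and called without medium 2 (edgeR's adjusted p = 0.0491), and 0.069 without medium 3. The stress and hypoxia genes HMOX1 (0.28), SQSTM1 (0.17), NDRG1 (0.24) and VEGFA (0.21) were also higher with Cimicifugae Rhizoma. So were the endoplasmic reticulum genes HSP90B1 (0.11), CALR (0.14) and HERPUD1 (0.19) and the fatty acid desaturase FADS1 (0.16). Other genes higher with Cimicifugae Rhizoma were GREM1, a secreted BMP antagonist (0.31), ALDH1A3, a retinaldehyde dehydrogenase (0.23), GDA, a guanine deaminase (0.28), and LUCAT1, a long noncoding RNA (0.55). ANKRD29 differed by 0.37 and KANSL1L by 0.41, the same values as against vehicle. EML5 (0.50), GPR155 (0.44), LRRC37B (0.42) and the pseudogene ANKRD33BP1 (0.43) differed between the extracts but were not called against vehicle.

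ID1 and ID3, inhibitors of helix-loop-helix transcription factors and targets of BMP signalling, were lower with Cimicifugae Rhizoma, with differences of -0.40 and -0.41. ID1 averaged 276 CPM with Cimicifugae Rhizoma and 365 CPM with Citri Unshius Pericarpium. ID3 averaged 219 CPM with Cimicifugae Rhizoma and 291 CPM with Citri Unshius Pericarpium. Neither was called against vehicle, where ID1 differed by 0.02 and ID3 by -0.10. NAALADL2 (-0.46) and the secretogranin SCG2 (-0.41) were likewise lower than with Citri Unshius Pericarpium and not called against vehicle. SELENOW, a selenoprotein, differed by -0.49, DIRAS3, an imprinted small GTPase, by -0.41, TNFRSF10D, a decoy receptor for TRAIL, by -0.38, and IFITM10 by -0.57. SNHG5, a host gene of small nucleolar RNAs, differed by -0.42. The filament and actin genes KRT7 (-0.25), KRT18 (-0.22), VIM (-0.14) and ACTG1 (-0.14) were lower with Cimicifugae Rhizoma, as were CCN2 (-0.26), DKK1 (-0.23), HSP90AB1 (-0.14) and NPM1 (-0.13). SPDYE2 differed by -0.94 (edgeR's adjusted p = 0.0443), and its call was lost in a fit of these groups alone, without the replicate block (edgeR's adjusted p = 0.0695) and with it (0.0507). It was kept with the block in all groups, and lost in 4 of the 6 fits without a library (edgeR's adjusted p up to 0.464), while the difference over the 6 fits ran from -1.36 to -0.57. It is one of a family of near-identical copies, so its counts are uncertain.

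Of these 40 calls 15 were kept under every alternative that was run and 25 were lost under at least 1, with 13 to 19 lost when 1 of the 6 libraries was left out. None changed direction.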

How the results depend on the processing

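Of the 1140 calls against the vehicle, other settings gave 1003 to 1587, and 631 to 792 with 1 library left out. With the replicate block in the compared groups alone the count was 1835, and 1277 with the block in all groups, though these samples were not taken as pairs. The 18 calls against the low dose became 35 with DESeq2, 126 with no filter, 31 in the compared groups alone, 29 with the replicate block, 28 with the block in the compared groups alone, 46 without the libraries that stand apart (Cimicifugae Rhizoma high 3 and Citri Unshius Pericarpium low 3), and 7 to 12 with 1 library left out. High against medium (2872) gave 425 in the compared groups alone, 129 with the replicate block there, and 1739 to 3352 with 1 library left out. Low against vehicle (219) gave 340 with no filter, 338 without the libraries that stand apart, and 81 to 139 with 1 library left out. High against vehicle (5592) gave 2866 in the compared groups alone, 2710 with the replicate block there, and 4449 to 5672 with 1 library left out. Medium against Citri Unshius Pericarpium (115) gave 188 with no filter, 314 in the compared groups alone, 180 without the libraries that stand apart, 489 with the replicate block in the compared groups, and 53 to 73 with 1 library left out. Fits without a library have fewer samples, and for the rest the cause was not tested. The block in the compared groups alone was added after seeing the data. The mitochondrial difference of 0.554 points was 0.498 to 0.628 with 1 library left out. Among genes not called against vehicle, ID1 (0.02) ran between -0.045 and 0.071 with 1 library left out, below zero without vehicle 1 or medium 3, and ANKRD33BP1 (-0.08) between -0.162 and 0.0406, above zero without vehicle 3. Of the 133 named genes called against vehicle 77 kept the call under every alternative and 56 lost it under at least 1, 24 to 36 of them with any 1 library left out, and none changed direction. At 19.51 to 26.82 M counts per library, genes near 1 CPM such as CYP1A1 rest on few reads.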
